A study of Mus musculus with 48 samples.

Results

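Surfactant is the film of phospholipid and protein that lowers surface tension in the alveolus, and the alveolar type 2 cell makes, stores and recycles it. The transcripts described here are 10 genes of that cell, chosen by name as rows of the expression table, out of 47561 genes listed. Sftpb and Sftpc encode the small hydrophobic surfactant proteins that help the film spread, and Sftpa1 and Sftpd encode the collectins, soluble lectins of innate defence in the airspace. Abca3 encodes the lipid transporter of the lamellar body, the organelle in which surfactant is stored, Lamp3 encodes a membrane protein of that organelle, and Napsa encodes an aspartic protease that takes part in the processing of the surfactant protein B precursor. Slc34a2 encodes the phosphate transporter of the type 2 cell surface, Lpcat1 an acyltransferase that remodels surfactant phosphatidylcholine, and Etv5 an ETS family transcription factor that maintains type 2 cell identity.

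RNA of whole lung was sequenced from 48 adult mice of the inbred strains C3H/HeN (C3H) and C57Bl/6 (C57B), males (M) and females (F), with 3 mice in each of 16 groups and 1 library per mouse. Each mouse received a single intraperitoneal injection of saline or of 25 mg/kg the gold compound aurothioglucose (ATG), an inhibitor of the enzyme thioredoxin reductase, and was then kept for 96 h in room air (RA) or in hyperoxia (HYP), which is oxygen above 95%. The text of the series describes ATG pretreatment of all mice, so the saline groups rest on the sample labels, and it names the J substrain of C57B, where the paper names N. The labels name no transgene and no engineered deletion for any group, and the separate mice are the replicates. All values are from lung tissue, in which fewer cells of a type and less RNA per cell cannot be told apart.

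Expression is given as FPKM, fragments scaled to transcript length and to the mapped fragments of the library, so levels can be compared between genes per length. The sum of FPKM per mouse ranged from 510933 to 748290, and mice of one group correlated with each other at 0.933 to 0.979 over genes on the log2(FPKM + 1) scale. The lowest agreement with the other mice of the same group was in C3HM saline RA mice 1 and 2, at a mean of 0.945 and 0.943. Scgb1a1, the secretory protein of club cells, took 10.4% to 30.2% of the sum in room air and 1.20% to 7.17% in hyperoxia. The 10 genes together took 4.09% to 7.64% in room air and 1.12% to 3.97% in hyperoxia, so the ranges of the 2 kinds of air did not overlap. This share mainly follows Sftpc, which had a mean of 29968 FPKM in saline room air mice, where the sum of the 10 had a median of 36848.

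All 10 genes were far above the detection limit, and their order by level was largely fixed. Sftpc was the highest of the 10 in all 48 mice and Etv5 the lowest in all 48. Sftpb ranked between 2 and 3 and Sftpa1 between 2 and 4 of the 10, whereas Abca3 and Lamp3 ranked between 7 and 9. In C57B saline RA mice the median was 32771 FPKM for Sftpc, 3294 for Sftpa1, 2974 for Sftpb, 735 for Sftpd and 539 for Slc34a2. The median in the same mice was 316 FPKM for Napsa, 226 for Lamp3, 187 for Lpcat1, 73.6 for Abca3 and 39.4 for Etv5. Of 15 other genes known as markers of the type 2 cell, the most abundant was Lyz2, and Egfl6 and S100g were listed at 0 in all 48 mice, so the label rests on the other 13 and on the 10 genes themselves. Whether other cells of the lung also gave transcripts of these markers, Lyz2 among them, was not determined.

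In GRCm38 with GENCODE M21, the surfactant protein genes Sftpa1 (ENSMUSG00000021789, chr14:41131782-41136452, plus strand) and Sftpd (ENSMUSG00000021795, chr14:41172214-41185149, minus strand) are neighbours on chromosome 14, where Sftpc (ENSMUSG00000022097, chr14:70520949-70524081, minus strand) also lies. Sftpb (ENSMUSG00000056370, chr6:72304610-72314371, plus strand) is on chromosome 6. The lamellar body genes are Abca3 (ENSMUSG00000024130, chr17:24351950-24410201, plus strand), Lamp3 (ENSMUSG00000041247, chr16:19653378-19706375, minus strand) and Napsa (ENSMUSG00000002204, chr7:44572380-44586862, plus strand). The others are Slc34a2 (ENSMUSG00000029188, chr5:53038081-53071664, plus strand), Lpcat1 (ENSMUSG00000021608, chr13:73467197-73516422, plus strand) and Etv5 (ENSMUSG00000013089, chr16:22381309-22439719, minus strand). All 10 are protein coding. Of the 30-base words of Etv5 transcripts, 30.6% also occur in the processed pseudogene Gm4798, and of those of Lamp3 14.6% occur in other genes, with 9.83% in Ppid, so the levels of both are less certain than those of the surfactant proteins. Genes on the other strand overlap Abca3, Napsa and Slc34a2, and whether reads were assigned by strand is not given in the sources used here.

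The sequences just upstream of Sftpb and Sftpa1 are shown because these 2 surfactant protein genes moved in opposite directions in hyperoxia, on average over the saline mice, as described further on. Each is the 250 bases before the transcription start in RefSeq GRCm38.p6, 5′ to 3′ on the plus strand, chr6:72304360-72304609 for Sftpb and chr14:41131538-41131787 for Sftpa1. Capitals mark matches on either strand to CTCAAG, the core bound by the lung transcription factor NKX2-1, and to TGTTTNC, a forkhead motif (GCAAACA in Sftpb is such a match on the opposite strand).
Sftpb: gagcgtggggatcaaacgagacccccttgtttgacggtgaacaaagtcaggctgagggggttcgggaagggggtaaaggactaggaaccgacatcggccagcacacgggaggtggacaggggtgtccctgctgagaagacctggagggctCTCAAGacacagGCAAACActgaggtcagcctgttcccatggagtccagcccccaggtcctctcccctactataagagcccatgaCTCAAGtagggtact
Sftpa1: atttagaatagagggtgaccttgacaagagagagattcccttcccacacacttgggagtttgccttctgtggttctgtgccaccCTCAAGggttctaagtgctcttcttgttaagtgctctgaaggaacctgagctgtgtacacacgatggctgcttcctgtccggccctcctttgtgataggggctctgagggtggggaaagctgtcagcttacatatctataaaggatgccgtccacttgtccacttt
The Sftpb window held CTCAAG at 100 and 15 bases before the start and the forkhead motif at 88, and the Sftpa1 window held CTCAAG at 166. Windows for 7 of the 10 genes were found, 8 in all because Etv5 has 2. CTCAAG was in 2 of these 8 windows and in 13.3% of all 32851 promoter windows of this length, the forkhead motif in 3 of 8 and 17.8%, and GGAAGT, a core bound by ETS factors, in 1 of 8 and 19.7%. The matches shown do not overlap each other, and a match is a description of the sequence only.

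**Figure D1:**
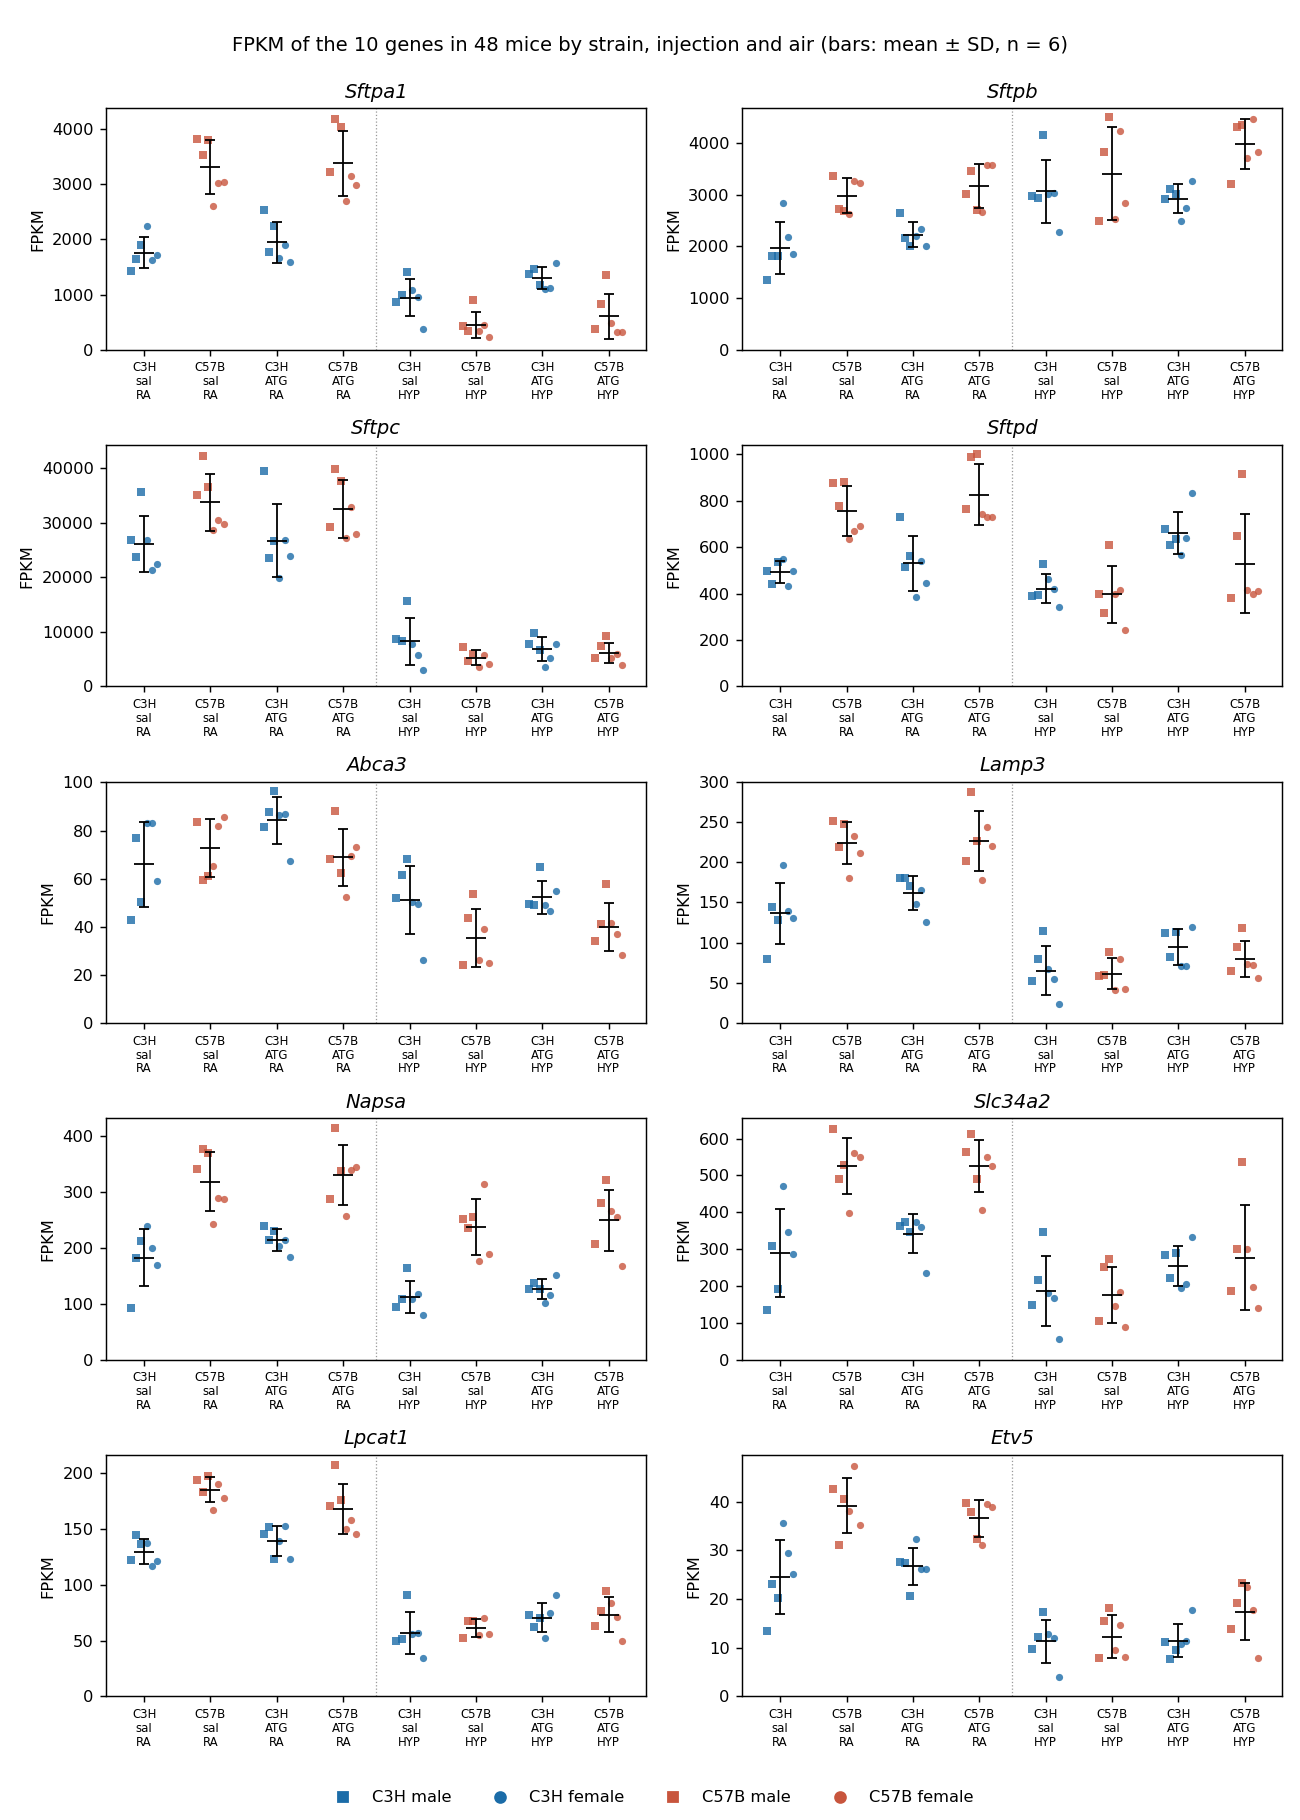
FPKM (linear axes from 0) of each of the 10 genes in 48 mice by strain, injection and air, with squares for males, circles for females and bars for the mean ± SD of 6 mice. In room air (left of each dotted line) most genes were higher in C57B, and Sftpc in saline mice lay at or below 15752 FPKM in hyperoxia and at or above 21364 in room air.

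The first question was whether the strains differ at baseline, in the 12 saline mice in room air. In C3H, 8 of the 10 genes were lower than in C57B and none was higher, by limma with Benjamini-Hochberg adjustment over 15546 genes, of which 11.8% passed the threshold of 0.05, 3.92% higher and 7.87% lower in C3H. The median log2 difference (C3H minus C57B) was -0.67 over the 10 genes and -0.10 over all genes tested. Of the 8, 4 were without overlap between strains, as were 5.98% of all genes. Both collectins, all of the lamellar body genes except Abca3, the phosphate transporter, the acyltransferase, Etv5 and Sftpb were among the 8.

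Sftpa1 ranged from 1433 to 2250 FPKM in C3H with a median of 1683, and from 2616 to 3830 in C57B with a median of 3294. The groups did not overlap, and the log2 difference was -0.91 (SE 0.11, limma adjusted p = 0.000207), 1.88-fold lower in C3H. Sftpd, the other collectin, was between 432 and 550 FPKM in C3H (median 496) and between 634 and 879 in C57B (median 735), again without overlap, with a log2 difference of -0.61 (SE 0.09, limma adjusted p = 0.000852). Napsa ranged from 91.8 to 239 FPKM in C3H (median 191) and from 243 to 377 in C57B (median 316), and Lpcat1 from 117 to 144 (median 129) and from 167 to 197 (median 187). Neither overlapped between strains, and the log2 differences were -0.84 (SE 0.18, limma adjusted p = 0.00961) for Napsa and -0.51 (SE 0.08, limma adjusted p = 0.00145) for Lpcat1. For the other 4 genes that fell below C57B the strains overlapped, with log2 differences of -0.95 for Slc34a2, -0.75 for Lamp3, -0.70 for Etv5 and -0.63 for Sftpb. The call of Sftpb was lost when all genes above 0 were tested (limma adjusted p = 0.0569).

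Sftpc and Abca3 did not pass. Sftpc ranged from 21364 to 35696 FPKM in C3H (median 25256) and from 28679 to 42323 in C57B (median 32771), a log2 difference of -0.38 with a 95% interval of -0.66 to -0.10 and a limma adjusted p of 0.0835. Without C3HM saline RA mouse 3, which held the 35696, Sftpc passed too, at a limma adjusted p of 0.0146 (log2 -0.46, 9.12% of all genes passing in that fit). With all 12 mice it also passed after division by the FPKM sum without the 10 genes and Scgb1a1 (-0.39, limma adjusted p = 0.0297). In 7 of 9 alternative settings Sftpc did not pass. Over these 9 settings its difference ranged from -0.51 to -0.24, with a limma adjusted p of up to 0.753. Abca3 had means of 65.9 ± 17.5 (SD, n = 6) and 72.8 ± 12.1 FPKM and a difference of -0.17 (95% interval -0.52 to 0.18).

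Genes around the surfactant pathway moved in the same comparison, in which 7.87% of all genes were lower and 3.92% higher in C3H. Of 9 other genes of surfactant processing and the lamellar body, 3 were lower in C3H: Ctsh, a cathepsin that cleaves surfactant protein precursors (log2 -1.02, 164 against 322 FPKM), Rab27a (-1.09), a small GTPase of secretory vesicles, and Atp8a1 (-0.66), a phospholipid flippase. Of 12 lipid synthesis genes 4 were lower, Fasn (-1.03), Scd1 (-0.98), Elovl1 (-0.96) and Fabp5 (-0.80), all of which make or carry fatty acids. Among 7 transcription factors of the alveolar epithelium, Tfcp2l1 (-0.99) and Cebpa (-0.75) were lower, and Nkx2-1, the master regulator of lung epithelium, had a difference of 0.04 (limma adjusted p = 0.868). Of 12 tested markers of the type 2 cell 8 were lower in C3H, the largest differences being Ppp1r14c (-1.24), Lyz2 (-0.91), Hc (-0.56) and Lgi3 (-0.56).

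In the same comparison, 6 of 10 tested alveolar type 1 markers were higher in C3H, with a summed level of 5001 to 8019 FPKM against 4104 to 4866 in C57B, and all 5 neutrophil markers were lower, with a summed level of 135 to 312 FPKM against 180 to 774. Of 8 transitional epithelium markers 4 were lower and 1 higher, of 7 endothelial markers 2 were higher, of 7 macrophage markers 1 was higher and 1 lower, of 5 ciliated cell markers 1 was lower, and of 4 red blood cell markers 2 were higher and 1 lower. None of 5 club cell and none of 5 cardiac muscle markers passed by limma. The part of these markers in the results for the 10 genes was not tested.

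Sex and its interaction with strain were examined in the same 12 mice. None of the 10 genes differed between males and females by limma (0.669% of all genes passed, and 3617 had an unadjusted p under 0.05), and 2 had an unadjusted p under 0.05, Sftpc with a log2 difference (male minus female) of 0.31 (95% interval 0.03 to 0.60, limma adjusted p = 0.185) and Etv5 with -0.37 (95% interval -0.69 to -0.05, limma adjusted p = 0.175). The direction of Sftpc turned under quantile normalization, at -0.24. Without C3HM saline RA mouse 2, 23.5% of all genes passed in place of 0.669%, and 4 of the 10, with log2 differences of 0.38 for Sftpc, -0.43 for Abca3, -0.51 for Slc34a2 and -0.45 for Etv5. Within C57B, the 3 males lay above the 3 females for Sftpa1 (mean 3722 against 2894 FPKM), Sftpc (37972 against 29628), Sftpd (846 against 666) and Napsa (363 against 274). Of all genes, 24.4% were without overlap in that comparison. None of the 10 passed by limma in that strain (0.00% of all genes passed, with 2 of the 10 and 1733 of all genes at an unadjusted p under 0.05). Within C3H, the 3 males lay below the 3 females for Sftpb (mean 1656 against 2287 FPKM) and Etv5 (18.9 against 30.1), where 21.3% of all genes were without overlap, and again none passed (0.695% of all genes passed, with 3 of the 10 and 4462 of all genes at an unadjusted p under 0.05). The interaction of strain and sex passed for none of the 10 and for 0.00% of all genes by limma, with 3 of the 10 and 2538 of all genes at an unadjusted p under 0.05, among them Slc34a2 at -0.98 (limma adjusted p = 0.259). Without C3HM saline RA mouse 2, Slc34a2 passed the interaction at -1.29, as did 17.7% of all genes.

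Hyperoxia was then compared with room air in the 24 saline mice. Of the 10 genes, 9 fell and 1 rose, with 60.1% of all 16321 genes passing in either direction, 28.3% lower and 31.8% higher, so most genes passed in this comparison. The direction and the size are the description here: the median log2 change was -1.28 over the 10 genes and 0.01 over all genes. Only 0.337% of genes had a more negative change than Sftpc, and 0.539% a more negative change than Sftpa1.

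Sftpc ranged from 21364 to 42323 FPKM in room air and from 2996 to 15752 in hyperoxia, without overlap, and fell by 2.26 on the log2 scale (SE 0.15, limma adjusted p = 1.44e-10), 4.80-fold lower. Under quantile normalization, which gives each rank the same value in every mouse and so compresses the most abundant genes, the change of Sftpc was -0.72 and still passed. Sftpa1 fell from means of 2535 to 697 FPKM, also without overlap, with a log2 change of -1.99 (SE 0.17, limma adjusted p = 7.37e-09). Lpcat1 was the third without overlap (7.74% of all genes were), at 117 to 197 FPKM in room air and 34.1 to 91.1 in hyperoxia, and its log2 change was -1.41 (SE 0.10, limma adjusted p = 3.51e-10).

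Lamp3 (log2 change -1.52), Etv5 (-1.37) and Slc34a2 (-1.20) fell 2.87-, 2.58- and 2.30-fold, with overlap between the kinds of air at the edges. Smaller falls were found for the lipid transporter Abca3 (-0.72), the collectin Sftpd (-0.60) and the protease Napsa (-0.55, SE 0.13, limma adjusted p = 0.00119). Sftpb was the exception, at a mean of 2477 FPKM in room air and 3235 in hyperoxia, a rise of 0.40 on the log2 scale (SE 0.12, limma adjusted p = 0.00579). Each of the 10 calls kept its direction and side of the threshold under all alternative settings and without any one mouse.

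The transcripts of the hydrophobic surfactant proteins, which are both parts of the surface film, therefore changed in opposite directions on average over the saline mice. Within strains and sexes, the rise of Sftpb passed in C3H and in males, and not in C57B or in females, as given further on. The ratio of Sftpc to Sftpb FPKM was 14.0 ± 4.68 (SD, n = 6) in C3H saline mice in room air and 2.57 ± 0.865 in hyperoxia, and 11.5 ± 2.52 and 1.62 ± 0.651 in C57B. No hyperoxia mouse of the saline groups was above 3.79, and no room air mouse was below 9.23. In ATG mice the ratio was 7.81 to 14.9 in room air and 1.05 to 3.15 in hyperoxia. A ratio of 2 genes of a library does not depend on the scaling of that library. The collectins both fell over the 24 mice, and the ratio of Sftpa1 to Sftpd was 3.58 ± 0.406 in room air and 2.19 ± 0.551 in hyperoxia in C3H saline mice, and 4.38 ± 0.147 and 1.08 ± 0.222 in C57B.

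**Figure D2:**
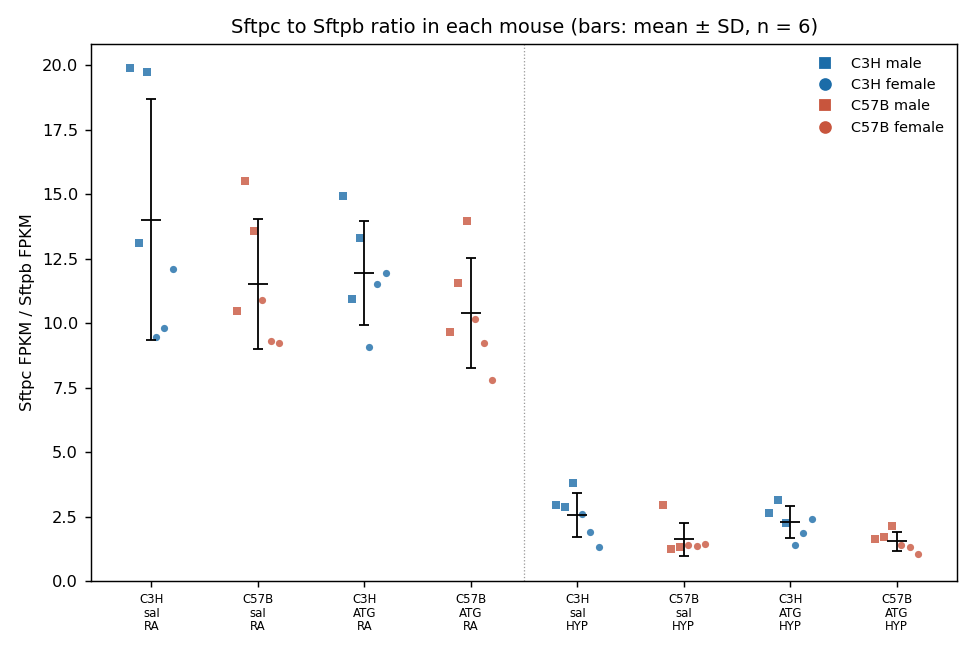
Ratio of Sftpc to Sftpb FPKM in each mouse (linear axis from 0) by strain, injection and air, with squares for males, circles for females and bars for the mean ± SD of 6 mice. The ratio lay between 7.81 and 19.9 in room air, and at or below 3.79 in hyperoxia, in both strains and with either injection.

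The counts for the other surfactant lists stand beside 31.8% of all genes rising and 28.3% falling. The list medians were -0.20 for the processing genes and -0.16 for the lipid genes, against 0.01 over all genes. Of 9 processing genes 2 rose and 3 fell, and the 2 that rose were Ctsh (log2 1.16, 516 against 243 FPKM) and Ap3b1 (0.32), a subunit of a vesicle adaptor complex. Rab27a (-0.51), Atp8a1 (-0.39) and the vesicle channel P2rx4 (-0.37) fell. Of 12 lipid genes 4 fell, Fasn (-1.07), Elovl1 (-0.70), Chpt1 (-0.55), which makes phosphatidylcholine, and Lpin1 (-0.31). Of 7 transcription factors 5 fell and 1 rose: Nkx2-1 fell from a mean of 104 to 46.9 FPKM (log2 -1.20, SE 0.15, limma adjusted p = 6.64e-07), followed by Cebpa (-0.61), Foxa1 (-0.52) and Foxa2 (-0.52), and Klf5 rose (0.87). Of 12 tested type 2 markers 10 fell and 1 rose, with a list median of -1.41, and the largest falls were Lyz1 (-2.96), Lgi3 (-2.39), Ppp1r14c (-2.22) and Hc (-2.13), whereas Npc2 rose (0.20).

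Genes of other cells moved in the same contrast. All 8 markers of the transitional alveolar epithelium, the state between type 2 and type 1 cells after injury, rose, with a summed level of 529 to 826 FPKM in room air and 2252 to 3504 in hyperoxia. Lgals3 was the most abundant of the 8, and the cells that gave these transcripts in whole lung were not determined. Of 10 type 1 markers 7 fell and none rose, with summed levels of 4104 to 8019 and 1889 to 5583 FPKM. Of 5 club cell markers 3 fell (summed 69950 to 231092 and 7200 to 43606 FPKM), of 5 ciliated cell markers 4 fell, and of 7 endothelial markers 4 fell and 1 rose. All 5 neutrophil markers (summed 135 to 774 and 161 to 6265 FPKM) and 5 of 7 macrophage markers rose, and 2 macrophage markers fell. All 4 tested red blood cell markers and 4 of 5 cardiac muscle markers fell, red blood cell markers from 3341 to 67957 FPKM in sum to 305 to 2004. The part of these shifts in the changes of the 10 genes was not tested.

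Whether hyperoxia acted alike in both strains was tested by the interaction, the change in C3H less that in C57B. Sftpa1 and Sftpd passed, both with a smaller fall in C3H, against 11.5% of all genes passing and 8.71% in this direction. The median interaction was 0.72 over the 10 genes and 0.15 over all genes tested. Under the median ratio scaling the all-gene median was 0.00 and the split of all calls moved from 1422 higher and 458 lower to 926 and 1066, and the median of the 10 genes was 0.53.

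Sftpa1 in hyperoxia was between 381 and 1402 FPKM in C3H saline mice (median 977) and between 228 and 909 in C57B (median 385), against baseline medians of 1683 and 3294. Its log2 change was -0.98 in C3H and -3.01 in C57B, falls of 1.97-fold and 8.04-fold. The interaction was 2.03 (SE 0.35, 95% interval 1.30 to 2.76, limma adjusted p = 0.00122), a larger positive value than in all but 0.325% of genes, and it passed under all alternatives. C57B, which had the higher level of Sftpa1 in room air, thus had the lower level in hyperoxia.

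Sftpd in hyperoxia was between 342 and 526 FPKM in C3H (median 406) and between 243 and 610 in C57B (median 398). Its change was -0.97 in C57B (limma adjusted p = 1.73e-05, no overlap with room air) and -0.23 in C3H (95% interval -0.54 to 0.08, limma adjusted p = 0.244). The interaction was 0.74 (SE 0.21, limma adjusted p = 0.0280), and it was lost with adjusted p from 0.0530 to 0.0549 when C3HM saline HYP mouse 9, C3HF saline RA mouse 26 or C3HF saline HYP mouse 31 was left out, and at 0.105 under the median ratio scaling.

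In C57B 8 of the 10 genes fell, where 55.5% of all genes passed and 30.0% fell. All 8 were without overlap between the kinds of air, as were 32.4% of all genes. In C3H 6 fell and 1 rose, where 37.8% of all genes passed, 12.5% lower and 25.3% higher. Sftpc had a change of -1.81 in C3H and -2.72 in C57B, and the difference was 0.90 (95% interval 0.28 to 1.53, limma adjusted p = 0.0555). That difference was 0.36 under quantile normalization (limma adjusted p = 0.669), and it passed after division by the sum without the 10 genes and Scgb1a1 (0.94, limma adjusted p = 0.0444) and in the fit of all 48 mice (0.90, limma adjusted p = 0.0292). Slc34a2 had -0.72 (limma adjusted p = 0.0692) and -1.69, with a difference of 0.97 (limma adjusted p = 0.143). Abca3 had -0.37 and -1.07, and Lamp3 -1.15 and -1.89. Sftpb had 0.65 (limma adjusted p = 0.00428) in C3H and 0.16 (95% interval -0.19 to 0.50) in C57B, with a difference of 0.49 (limma adjusted p = 0.175). For Napsa the order was the other way round, -0.67 in C3H and -0.43 in C57B, with a difference of -0.24 (95% interval -0.79 to 0.31).

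C3HF saline HYP mouse 33 had the lowest value among the 6 C3H saline hyperoxia mice for all 10 genes, for example 2996 FPKM for Sftpc and 3.94 for Etv5. Without it, 6 of the 10 interactions passed in place of 2, and 14.4% of all genes in place of 11.5%, the added ones being Sftpc (1.10), Slc34a2 (1.24), Lamp3 (0.96) and Abca3 (0.85). Sftpc also passed without C3HM saline RA mouse 3 (0.99), C3HM saline HYP mouse 8 (0.98) or C57BF saline HYP mouse 44 (1.00), and Abca3 without C3HM saline RA mouse 2 (0.82), where 19.9% of all genes passed. Without C3HM saline RA mice 1 and 3, an alternative chosen after seeing the data, the count stayed at 2.

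**Figure D3:**
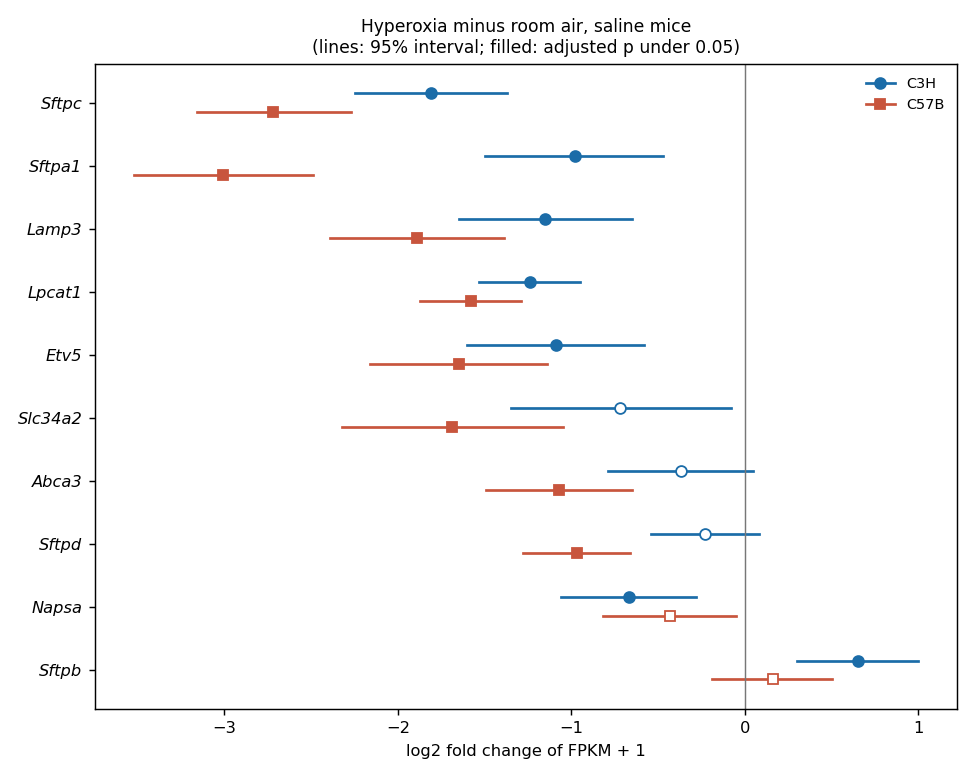
Log2 fold change of FPKM + 1 (hyperoxia minus room air, saline mice) of each gene in C3H (circles) and C57B (squares), with 95% intervals as lines and filled symbols where the limma adjusted p was under 0.05. The largest separation between strains is for Sftpa1, at -0.98 and -3.01, and Sftpb is the only gene to the right of 0 in both.

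Of all genes 11.5% passed the hyperoxia by strain interaction, 8.71% with the positive sign, so most called genes had that sign in the main fit. The split was 926 positive and 1066 negative with median ratio scaling, and 862 and 893 with quantile normalization. The related genes with a called interaction had the positive sign in the main fit, and they were not refitted under other scaling. They were 3 of 9 processing genes (P2rx4 at 0.97, Atp8a1 at 0.96 and Rab27a at 0.84), 3 of 12 lipid genes (Elovl1 at 1.12, Fasn at 1.01 and Fabp5 at 0.89) and 4 of 12 type 2 markers (Lyz1 at 2.18, Cxcl15 at 2.13, Lyz2 at 1.61 and Chil1 at 1.52), and none of 7 transcription factors (Nkx2-1 at 0.47, limma adjusted p = 0.302). Of 5 club cell markers 3 had a positive interaction too, with a summed level in hyperoxia of 27943 to 43606 FPKM in C3H and 7200 to 17878 in C57B. A positive interaction was also called for 2 of 5 ciliated cell and 1 of 7 endothelial markers. Of 7 macrophage markers 2 had a positive and 1 a negative interaction. The part of these markers in the result was not tested.

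The strains were also compared directly within hyperoxia, in the 12 saline mice (28.2% of all genes passed, 16.0% higher and 12.2% lower in C3H). Sftpa1 was higher in C3H by 1.12 on the log2 scale (SE 0.31, limma adjusted p = 0.0209), with overlapping groups, and this call was lost, with adjusted p up to 0.0530, when C3HM saline HYP mouse 9, C3HF saline HYP mouse 31 or 32, or C57BF saline HYP mouse 45 was left out. Napsa was lower in C3H, at 80.8 to 165 FPKM (median 108) against 177 to 314 in C57B (median 244), without overlap (the share of all genes without overlap was not counted here). Its log2 difference was -1.08 (SE 0.17, limma adjusted p = 0.00108), beside -0.84 in room air. The other 8 genes did not pass, with a median over the 10 of 0.01, and without mouse 33 Sftpc (0.72) and Abca3 (0.68) passed as well, higher in C3H, and 31.7% of all genes passed in either direction. Abca3 also passed without C57BM saline HYP mouse 21 (0.65, with 29.3% of all genes passing). In the same contrast 1 of 9 processing genes was higher in C3H and 1 lower, and of 12 lipid genes 2 were higher and 1 lower. Of 7 transcription factors none was higher and 1 was lower. Among the marker lists, 4 of 12 type 2, 4 of 5 club cell, 5 of 7 endothelial, 3 of 10 type 1 and 2 of 5 ciliated cell markers were higher in C3H and none lower. Of 7 macrophage markers 3 were higher and 2 lower, of 8 transitional markers 1 was higher and 3 lower, of 4 red blood cell markers 1 was higher and 1 lower, of 5 cardiac muscle markers 1 was higher, and of 5 neutrophil markers none passed by limma. Endothelial markers summed to 1366 to 1758 FPKM in C3H and 847 to 1101 in C57B, and the part of these markers in the results was not tested.

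In males 6 of the 10 genes fell and 1 rose under hyperoxia, where 45.1% of all genes passed, 17.0% lower and 28.1% higher. In females 9 fell and none rose, where 50.3% passed and 26.7% were lower. The interaction of hyperoxia and sex passed for none of the 10 by limma, and for 0.0368% of all genes, with 3 of the 10 and 2964 of all genes at an unadjusted p under 0.05. Slc34a2 had -0.67 in males and -1.73 in females with a difference of 1.06 (limma adjusted p = 0.217), and Abca3 had -0.33 and -1.11 with a difference of 0.78 (limma adjusted p = 0.190). Without C57BM saline HYP mouse 19, the difference of Abca3 was 0.94 and passed (limma adjusted p = 0.0389), as did 6.45% of all genes. Sftpb rose in males (0.64, limma adjusted p = 0.00374), at a mean of 3481 against 2290 FPKM, and had 0.17 in females (95% interval -0.18 to 0.51), and the difference of 0.47 did not pass (limma adjusted p = 0.291). All 5 neutrophil markers rose in females and none passed in males by limma, but none of the 5 passed this interaction (list median -2.69, against 0.14 over all genes). Falls were called for 7 of 10 type 1 markers in females and 3 in males, for 5 and 2 of 5 ciliated cell markers, and for 5 and 2 of 7 transcription factors. For 7 endothelial markers the falls were 3 and 4, and for 5 club cell markers 3 and 3. None of these markers passed the interaction by limma, and their part in the result was not tested.

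ATG was compared with saline in room air and in hyperoxia, each in 24 mice, and both comparisons share their saline mice with those above. In room air none of the 10 genes passed, none had an unadjusted p under 0.05, and 0.0185% of all genes passed by limma, with 1077 at an unadjusted p under 0.05. The differences lay between -0.02 and 0.17 on the log2 scale, and the widest 95% interval, that of Slc34a2, ran from -0.09 to 0.42.

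In hyperoxia, Sftpd was higher with ATG and the other 9 genes did not pass, against 5.47% of all genes passing and 3.89% higher. The median log2 difference was 0.28 over the 10 genes and 0.05 over all. Sftpd was 568 to 834 FPKM (median 637) in C3H mice with ATG and 342 to 526 (median 406) in those with saline, without overlap. The share of all genes without overlap was not counted for this comparison. In C57B Sftpd was 382 to 916 (median 413) and 243 to 610 (median 398), with overlap. Within 1 strain it passed in neither, at 0.65 in C3H (limma adjusted p = 0.0757, 2.65% of all genes passing) and 0.39 in C57B (limma adjusted p = 0.274, 0.864% passing). The difference over both strains was 0.52 (SE 0.13, 95% interval 0.24 to 0.80, limma adjusted p = 0.0325), 1.43-fold.

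This call was narrow. Leaving out any 1 of 9 mice ended it, with adjusted p up to 0.0641 and 2.80% to 5.02% of all genes passing, these mice being C3HM saline HYP 7 and 8, C3HM ATG HYP 10, C57BM saline HYP 20, C57BM ATG HYP 23 and 24, C3HF ATG HYP 36, C57BF saline HYP 45 and C57BF ATG HYP 47. Of 8 alternative settings, only 4 kept it. It was lost with median ratio scaling (limma adjusted p = 0.0523), which moved the split of all calls from 617 higher and 251 lower to 262 and 377. The limma adjusted p was 0.0564 with all genes above 0 and 0.0896 with quantile normalization. After division by the sum without the 10 genes and Scgb1a1 it was 0.0759. The difference itself stayed between 0.44 and 0.60. Its interaction with air was 0.41 (95% interval 0.09 to 0.73, limma adjusted p = 0.141), which did not pass, and no gene of the 10 passed that interaction by limma (2.77% of all genes passed, with 2 of the 10 and 3190 of all genes at an unadjusted p under 0.05). Without C57BM ATG HYP mouse 22, which had 382 FPKM, the interaction of Sftpd was 0.50 and passed (limma adjusted p = 0.0387), as did 3.65% of all genes.

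Among the genes that did not pass, the largest ATG differences in hyperoxia were those of Slc34a2 at 0.62 (95% interval 0.13 to 1.11, limma adjusted p = 0.124), Lamp3 at 0.51 (0.14 to 0.88, limma adjusted p = 0.0925) and Sftpa1 at 0.45 (-0.00 to 0.90, limma adjusted p = 0.229). Sftpc had a difference of 0.02 with an interval of -0.35 to 0.38, and Sftpb 0.10 with an interval of -0.13 to 0.33. Sftpa1 in hyperoxia was 1093 to 1579 FPKM in C3H mice with ATG, and 312 to 1347 in C57B mice with ATG. The interaction of ATG and strain in hyperoxia passed for none of the 10 by limma (0.416% of all genes passed, with none of the 10 and 2110 of all genes at an unadjusted p under 0.05), and for Sftpd it was 0.26 (95% interval -0.30 to 0.83).

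**Figure D4:**
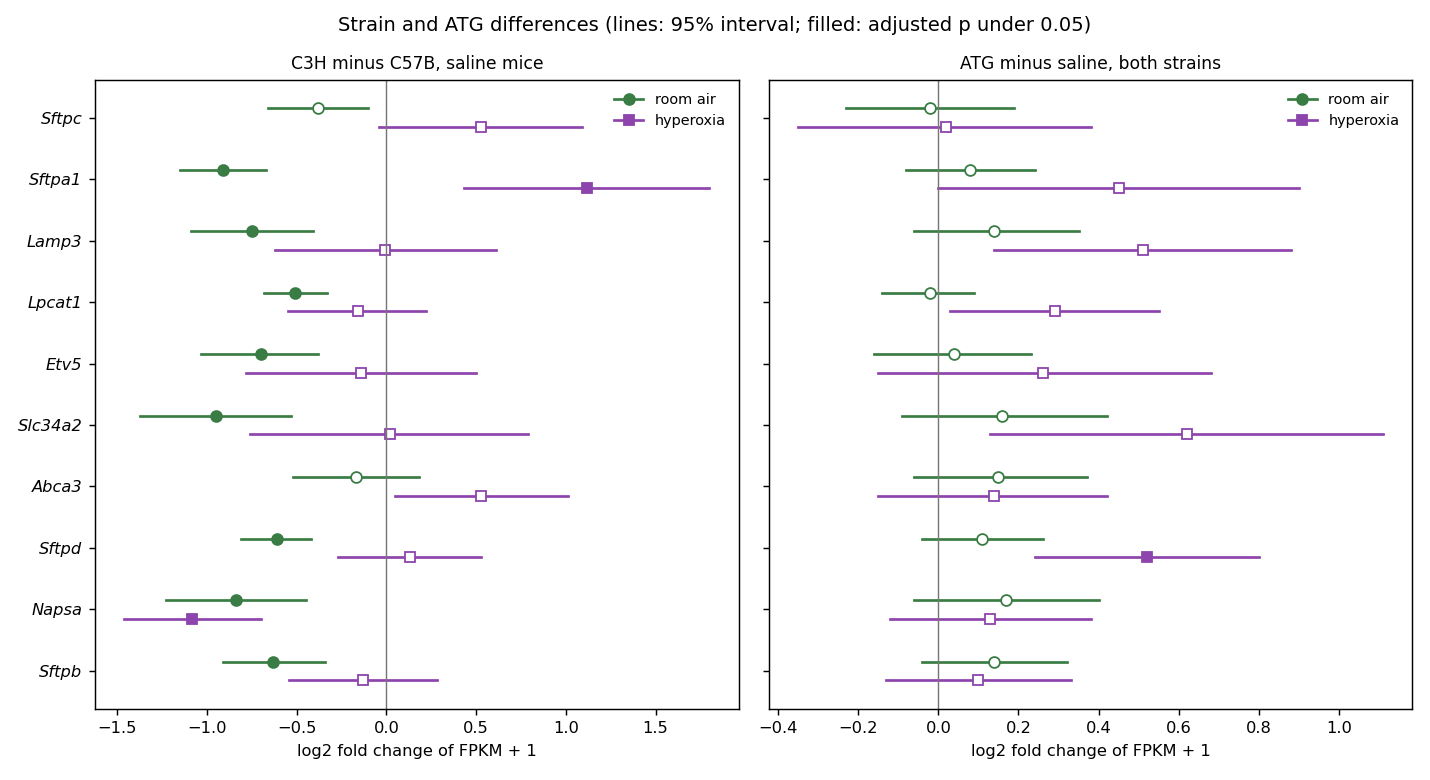
Log2 fold change of FPKM + 1 of each gene between strains in saline mice (left, C3H minus C57B) and between injections (right, ATG minus saline, both strains), in room air (circles) and hyperoxia (squares), with 95% intervals as lines and filled symbols where the limma adjusted p was under 0.05. Strain differences in room air lie to the left of 0. In hyperoxia Sftpa1, Sftpc, Abca3, Sftpd and, at 0.02, Slc34a2 lie to the right, and of these only Sftpa1 is filled. Sftpd is the only gene filled in the ATG panel, at 0.52.

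Of the other type 2 markers, Chil1, a chitinase-like protein (log2 0.94, 690 against 291 FPKM), and Cxcl15, the chemokine lungkine (0.50), were higher with ATG in hyperoxia, as was Rab38 (0.30), a GTPase of lamellar body formation. Chil1 (0.77) and Cxcl15 (0.61) passed the interaction of ATG and air as well. None of 12 lipid genes and none of 7 transcription factors passed, with Nkx2-1 at 0.28 (limma adjusted p = 0.294). In the same contrast 4 of 7 macrophage and 2 of 7 endothelial markers were lower, and 1 of 10 type 1 markers was higher. Macrophage markers summed in C3H to 140 to 551 FPKM with ATG and 341 to 808 with saline. In C57B these sums were 749 to 1725 and 807 to 1909. Within C3H 5 of the 7 macrophage markers were lower, and within C57B 0 of 7. The part of these markers in the result was not tested.

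The 10 genes varied together among mice of a group. After the means of the 16 groups were subtracted, all 45 pairs of the 10 genes had a positive Pearson correlation over the 48 mice, from 0.31 to 0.91 with a median of 0.69. These points share the library, its scaling and the share taken by Scgb1a1, so the values are a description. Sftpb correlated with the mean of the 10 standardized genes (which includes Sftpb itself) at 0.09 over the 48 mice but at 0.84 within groups, whereas Lamp3 was at 0.98 and 0.95. Outside the 10 genes, the highest correlations with this mean over the 48 mice were those of Mlc1 (0.97), Dram1 (0.96), Ppp1r14c (0.93), Elovl1 (0.92) and Arhgef38 (0.92), among 16984 genes. Within groups the highest were Mlc1 (0.93), Lgi3 (0.93), Dram1 (0.92), Hc (0.90) and Cyp4v3 (0.87).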

How the data were processed

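The authors sequenced polyA-selected lung RNA, mapped reads to mm10 with GSNAP and deposited FPKM from Cufflinks for each gene in each mouse (the submitters' processing notes also name SAMtools). The annotation release and the treatment of multiply mapped reads are not given in the sources used here, and read depth is unknown, so no counting error is given. FPKM steps gave relative depths of 0.697 to 1.12, with only 34.7% to 42.6% of ratios on a step, so counts were not recovered. FPKM are shares of a library, so a change in abundant transcripts such as Scgb1a1 shifts all others.

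Groups came from the sample labels. Log2(FPKM + 1) was fitted on group means with limma 3.58.1 in R 4.3.3 (eBayes with trend) for genes that reached an FPKM of 1 in 3 or more mice of the fit, with Benjamini-Hochberg adjustment over all genes and a threshold of 0.05. Fold changes are on this scale. The 95% intervals are not adjusted. The strain and sex comparisons used the 12 saline room air mice, hyperoxia the 24 saline mice, ATG the 24 mice of each air, and the ATG by hyperoxia interaction all 48. Akap5, with failed estimates in 7 mice, was left out, and 20454 genes were at 0 in all mice. The hyperoxia fit was also run on simulated data with few changed genes and independent noise. That setting lacks the wide changes and the shared shifts of these libraries, so no conclusion is drawn from it. The 10 genes and the gene lists were chosen with earlier results of these data known. All 10 genes are named in every comparison. Of the 4 lists around the type 2 cell, at most 4 passing genes per direction are named, plus Nkx2-1, and of the other 9 cell lists the counts and summed levels. For strain in hyperoxia these 4 lists are given as counts only, and for sex in room air no list is given. The 5 most correlated genes are named by each measure. Results were refitted with a pseudocount of 0.1, other filters on low values, quantile or median ratio scaling, division by the sum without the 10 genes and Scgb1a1, eBayes without trend, 1 fit of all 48 mice, and leaving out each mouse.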

Additional observations from a re-analysis of the deposited data

Results flagged for a closer look

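The response of Sftpa1 to hyperoxia differed between strains, with an interaction of 2.03 on the log2 scale (C3H less C57B, limma adjusted p = 0.00122). The response of Sftpd also differed, by 0.74 (limma adjusted p = 0.0280). Among 80 sets of 6 mice (10 genes by strain, injection and air), 4 held a mouse whose distance from the nearest other mouse, as a share of the whole range, exceeded Dixon's critical value, and chance alone gives about 1 such set in 20. For Sftpa1 in C57B saline HYP mice the share was 0.677, C57BM mouse 21 being at 909 FPKM against 228 to 447 in the others. For Sftpc in C3H ATG RA mice it was 0.643, C3HM mouse 4 being at 39534 FPKM against 19949 to 26934. For Slc34a2 in C3H ATG RA mice it was 0.791, C3HF mouse 30 being at 236 FPKM against 346 to 374. For Etv5 in C3H ATG HYP mice it was 0.634, C3HF mouse 36 being at 17.8 FPKM against 7.76 to 11.4.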

How the results depend on the processing

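Over the 10 comparisons refitted, 2960 of 3010 refitted values of single genes kept their side of the threshold, 24 lost it and 26 gained it. None of those that passed in either fit changed sign. The comparisons within a strain or sex, and ATG by strain, were not refitted. The count of the 10 genes that passed was 7 to 9 for strain in room air and 10 for hyperoxia under every alternative. For the hyperoxia by strain interaction (2 genes), it was 1 when all genes above 0 were tested, 1 with quantile normalization, 1 with median ratio scaling, 4 in the fit of all 48 mice, and 1 to 6 when single mice were left out. For ATG in hyperoxia (1 gene), it was 0 with all genes above 0, 0 with quantile normalization, 0 with median ratio scaling, 0 after division by the sum without the 10 genes and Scgb1a1, 2 in the fit of all 48 mice, and 0 to 1 without single mice. Without single mice it was 1 to 4 for strain in hyperoxia, 0 to 4 for sex, 0 to 1 for the strain by sex, hyperoxia by sex and ATG by hyperoxia interactions, and 0 for ATG in room air. The causes were not tested. No paired analysis was possible because each mouse has its own number.

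Counts over all genes moved by over 1.5 times under some settings. In the fit of all 48 mice they went from 1832 to 2982 for strain in room air, from 104 to 1915 for sex, from 0 to 748 for strain by sex, from 6 to 306 for hyperoxia by sex and from 1880 to 2994 for hyperoxia by strain. For sex, 40 genes passed with all genes above 0, 60 with an FPKM of at least 0.1 in 3 mice, 297 after division by the sum without the 10 genes and Scgb1a1, and 30 without C3HM saline RA mice 1 and 3. For ATG in hyperoxia 528 in place of 868 passed after that division (169 higher and 359 lower). With all genes above 0, 313 in place of 470 passed for ATG by hyperoxia, and 5 in place of 3 for ATG in room air. Strain by sex gave 1 to 5 genes in place of 0 under 5 other settings, and hyperoxia by sex 2 in place of 6 with median ratio scaling. For strain in room air, quantile normalization gave 974 higher and 930 lower genes in place of 609 and 1223, and the all-gene median went from -0.10 to 0.02.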
